A study of Zea mays with 18 samples.

Results

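The genes described here had their highest mean level in maize endosperm on the first day after pollination. Their means were lower in the central cell and at every later endosperm stage sampled. They were chosen by a score, the mean CPM at 1 day after pollination (1 DAP) plus 1, divided by the highest mean among central cell at 0 DAP and endosperm at 2, 3 and 4 DAP plus 1. Only genes with at least 5 CPM in all 3 libraries of 1 DAP could be scored, which left 12319 candidates among the 38300 genes of the table, and the 150 highest scores were taken. CPM is a count of reads scaled to the depth of the library. The level at 1 DAP against the other endosperm stages is therefore what chose these genes, and it is given below as a description with no test.

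The study followed RNA of the maize inbred B73 through the earliest development of the endosperm. All 6 groups were untreated B73 plants of 1 greenhouse, with 3 libraries each and 18 in all. They were the central cell (0 DAP), endosperm of each of the next 4 days, and embryos taken whole on day 4. Ears were left unpollinated or were self-pollinated, and the tissue was cut out by laser capture. Every replicate pooled sections of several kernels of 1 ear, so the replicates differ by ear. RNA of 0 to 2 DAP and of the embryo was quantified by the height of the 18S band and RNA of 3 and 4 DAP endosperm was not, so quantification and stage cannot be told apart between those groups. Because the RNA was amplified before sequencing, reads are not independent molecules.

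In flowering plants a second sperm cell fuses with the central cell of the embryo sac and starts the endosperm, the tissue that nourishes the embryo and later stores starch and protein in cereals. The maize endosperm begins as a coenocyte, a single large cell in which nuclei divide without cell walls between them, and it becomes cellular within the first days. In captured tissue of this kind, fewer cells of a type and less RNA per cell cannot be told apart.

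Recovered read totals ran from 7688120 in replicate 1 of 1 DAP to 124078873 in replicate 1 of 2 DAP. Replicate 1 of 1 DAP had a Pearson correlation across genes of 0.933 on average with the other 1 DAP libraries, against 0.957 for replicate 2 and 0.952 for replicate 3. Its closest library was still of its own group, which held for all libraries except replicate 1 of 3 DAP, whose closest library was replicate 1 of 2 DAP. No cell type marker was among the 150 genes. The 6 embryo markers summed to between 2.57 and 9.18 CPM in the 1 DAP libraries and to between 48.9 and 111 CPM in the embryo, and in the 1 DAP libraries most of that sum was wox2A, a homeobox gene of the zygote and early embryo, at a mean of 4.94 CPM. ZAG1 and zag2, MADS-box genes of maternal flower tissue, summed to between 45.2 and 60.4 CPM at 1 DAP, below the 68.7 to 93.6 CPM of the central cell libraries and above the 20.6 to 28.6 CPM of 2 DAP. The pollen profilin PRO1 was at 0 to 0.744 CPM at 1 DAP, 0.914 to 3.10 CPM in the central cell and 5.33 to 14.9 CPM in the embryo. With such levels in other groups, the amount of pollen RNA cannot be read from it. Of the endosperm markers, mez1 had a mean of 50.9 CPM at 1 DAP and 47.5 CPM in the central cell. At 1 DAP fie1 had a mean of 18.2 CPM and esr1 0.129 CPM, while MEG1 and the transfer-layer gene BETL1 were listed at 0. Of the central cell markers, es4, es1 and es2 had means of 8.996, 6.36 and 4.81 CPM at 1 DAP. Their 2 DAP means were 0.0228, 0.0250 and 0.0244 CPM. EBE-1 had means of 46.2, 16.4 and 71.0 CPM at 0, 1 and 2 DAP, and EBE-2 379, 115 and 800 CPM. Ea1 was at 0.156 CPM at 1 DAP. The part of other tissues in the 1 DAP levels was not tested.

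Together the 150 genes summed to 5511 ± 412 CPM at 1 DAP (SD, n = 3). In replicate 1 the sum was 5561 CPM, of which GRMZM2G092648 held 1362 CPM and GRMZM2G026371 461 CPM. In replicates 2 and 3 the former was at 47.6 and 50.5 CPM and the latter at 9.24 and 11.6 CPM. The small SD of the sum therefore does not show that the other members were even among the libraries. The sum of the 150 genes was 917 ± 258 CPM in the central cell, 1074 ± 127 CPM at 2 DAP, 797 ± 199 CPM at 3 DAP and 888 ± 72.9 CPM at 4 DAP. The embryo stood between, at 1802 ± 205 CPM. The typical member was not an abundant transcript even at its peak. Its median of 1 DAP means was 20.4 CPM, against 21.6 CPM over all candidates, and 72 members had a 1 DAP mean under 20 CPM, 69 one between 20 and 100 CPM and 9 one above 100 CPM. On the log2(CPM + 1) scale the median member was 2.14 higher at 1 DAP than in the central cell and fell by 2.24 from 1 to 2 DAP in its means, where the medians over all 31783 genes tested were -0.04 and -0.01. The step up was the larger of the pair in 74 members and the step down in 76.

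**Figure D1:**
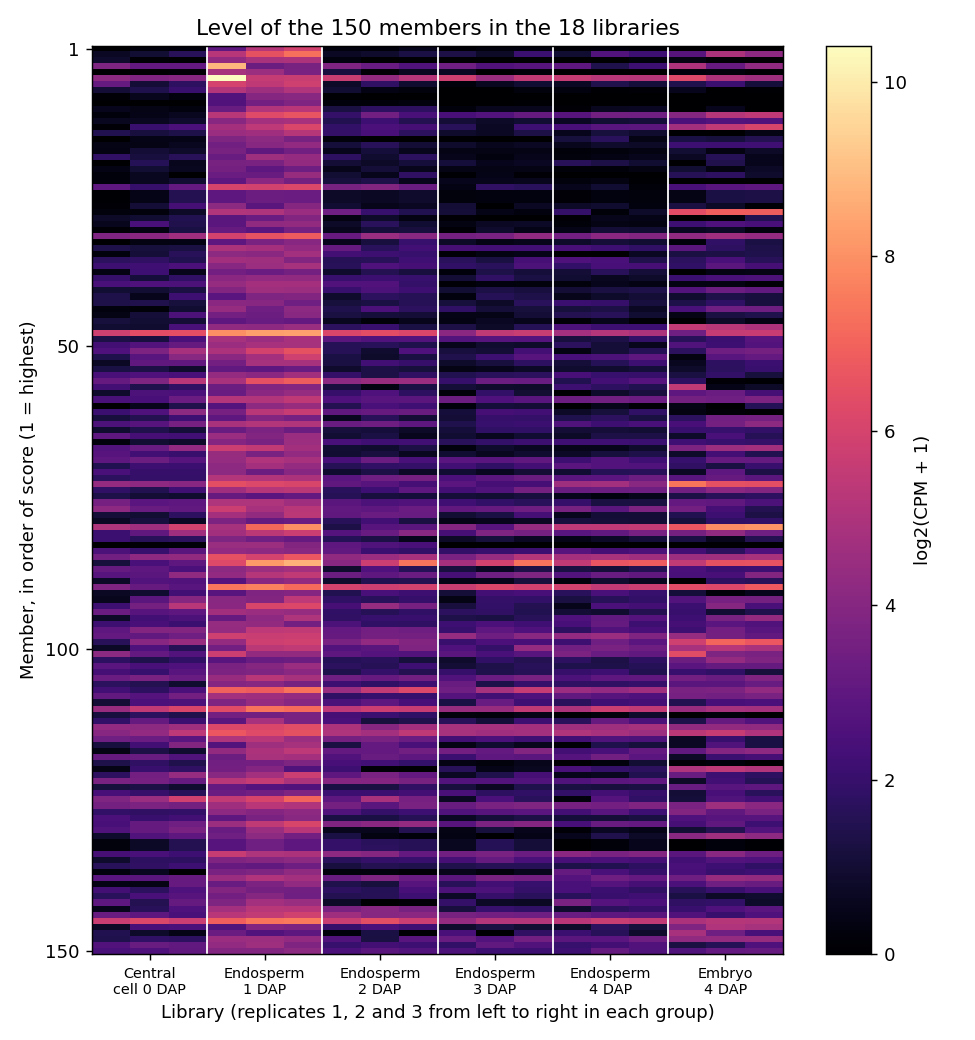
Level of the 150 members, ordered by score from the top, in the 18 libraries as log2(CPM + 1); white lines separate the 6 groups. The 1 DAP columns are the brightest of the endosperm for nearly every member, 2 members near the top are bright in replicate 1 of 1 DAP alone, and some members are bright again in the embryo.

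Scores ran from 26.9 down to 2.41, with a median of 3.32, while the median over all candidates was 0.681 and 16.2% of the candidates scored above 1. There were 89 members with a score of at least 3, 28 of at least 5 and 9 of at least 10. In 134 members the 3 libraries of 1 DAP lay above all 12 other endosperm libraries. That held for 3.95% of the candidates, but the rule used this contrast and nothing is read from it. The limit at 150 genes cut through a smooth slope. The last members were wee1 with 2.46, GRMZM2G055458 with 2.43 and GRMZM2G073979 with 2.41, and the first genes outside were GRMZM5G839017 with 2.40, GRMZM2G082068 with 2.40 and GRMZM2G458533 with 2.38.

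How common such a peak was at other stages was seen by computing the same score with each endosperm stage in the place of 1 DAP. The score of the last member, 2.41, was reached by 634 genes in the central cell, by 7 genes at 2 DAP, by 3 genes at 3 DAP and by 152 genes at 4 DAP. The central cell and 4 DAP are the ends of the series, so a gene already falling before or still rising after the sampled days counts there. Among the 3 inner stages, the score of the 150th gene of 1 DAP was thus reached by 7 genes at 2 DAP and 3 at 3 DAP. The count of 150 at 1 DAP was set by the rule, and this is a description of group means with no test. The 1 DAP libraries were also the least correlated with their neighbours in time among the inner stages. Their highest correlation with a library of another group was 0.910, 0.922 and 0.923, where the 2 and 3 DAP libraries had values from 0.958 to 0.973.

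**Figure D2:**
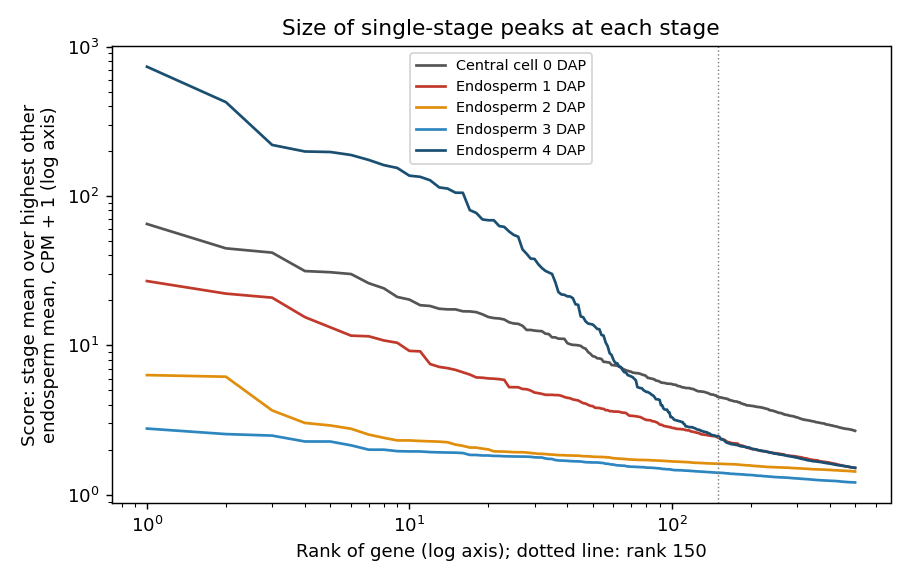
Score of the highest-ranked genes at each endosperm stage, computed as at 1 DAP (both axes log). At rank 150 the curve of 1 DAP stands at 2.41, those of 2 and 3 DAP at 1.61 and 1.40, and those of the end stages 0 and 4 DAP at 4.54 and 2.47.

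Among the 10 highest scores 5 genes were close to absent outside 1 DAP. GRMZM2G094510 had the highest score, with 6.69, 35.7 and 58.8 CPM in the 3 libraries of 1 DAP and no more than 0.477 CPM in any other library, embryo included. The groups did not overlap, but its 1 DAP libraries themselves spanned a wide range. GRMZM2G112057 was steadier, at 19.3, 28.9 and 30.3 CPM, with at most 0.831 CPM elsewhere. GRMZM2G118999 was at 27.1, 22.6 and 11.8 CPM, with at most 1.27 CPM elsewhere. Such a narrow window was the exception in the set. GRMZM2G306105 had 5.58, 15 and 16.1 CPM at 1 DAP and was listed at 0 in all embryo libraries, and GRMZM2G007969 had 5.35, 10.5 and 13.5 CPM with at most 0.238 CPM elsewhere. In all, 10 members had means under 1 CPM at every other endosperm stage, and 8 of these were also under 1 CPM in the embryo. None of the 10 has a gene name in the reference table, and 4 of them may be 2 loci counted as 4. GRMZM2G414727 and GRMZM5G890274 held identical read counts in all 18 libraries, and GRMZM2G451007 and GRMZM2G451010 had 1 DAP means of 9.53 and 9.08 CPM. The latter pair did not stay within 20% of each other in every library, with 0.203 and 0.122 CPM in replicate 2 of 4 DAP.

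The other genes of the top 10 kept some expression before or after the peak. GRMZM5G801949 was at 36.6, 90.6 and 157 CPM at 1 DAP, between 0.623 and 5.50 CPM in the other endosperm libraries, and at 5.86, 30.0 and 17.4 CPM in the embryo. GRMZM2G020761 was at 34.8, 23.4 and 33.6 CPM at 1 DAP, between 1.08 and 3.10 CPM in the central cell and under 1 CPM in all later libraries. It had thus nearly gone by 2 DAP.

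In 2 of the top 10 the score came from 1 library. GRMZM2G026371 was at 461 CPM in replicate 1 of 1 DAP and at 9.24 and 11.6 CPM in the others, which lie within the 1.68 to 13.3 CPM of the other endosperm libraries. GRMZM2G092648 was at 1362, 47.6 and 50.5 CPM, with up to 55.2 CPM in the other endosperm libraries. Without replicate 1 their scores were 1.09 and 1.19, far from the limit of 2.41. These were the only members whose highest 1 DAP library exceeded the middle one more than 3 times, and in neither did the 1 DAP libraries as a group stand above the other stages.

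The remaining members were less uneven, though not even. The coefficient of variation among the 3 libraries of 1 DAP had a median of 26.9% in the members and 23.1% in all candidates. A ratio above 3 between the highest and lowest 1 DAP library was found in 20 members, or 13.3%, and in 6.38% of the candidates. Replicate 3 held the highest 1 DAP value in 78 members, replicate 2 in 38 and replicate 1 in 34. Over the candidates those shares were 35.8%, 28.0% and 36.1%.

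To see the peak in libraries that did not choose the genes, the rule was applied to each pair of 1 DAP libraries and the genes were then looked up in the third. Replicate 2 was above the highest other endosperm mean in 148 of the 150 genes chosen without it, where 17.4% of the candidates were above, and replicate 3 in 147, where the background was 17.8%. In replicate 1 it was 137 genes, with 18.4% of the candidates. With a ratio of at least 2 required, the counts were 137 in replicate 2, 130 in replicate 3 and 95 in replicate 1, with backgrounds of 2.09%, 2.39% and 1.62%. The median ratio of the chosen genes in the library held out was 3.29 in replicate 2, 3.54 in replicate 3 and 2.61 in replicate 1. The means of the other stages were the same in choosing and in looking up, so a gene low there by chance stays low in both, and the shares carry no p. Of the 150 members, 110 were chosen again without replicate 1, 132 without replicate 2 and 132 without replicate 3.

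**Figure D3:**
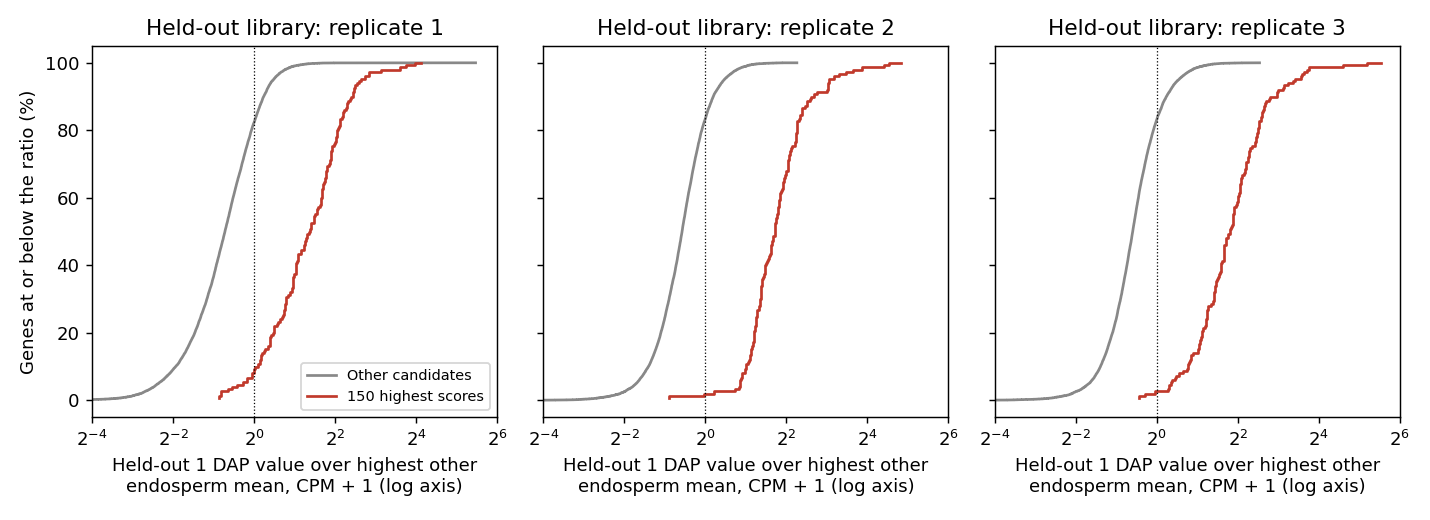
Cumulative share of genes (vertical, %) at or below a given ratio of the held-out 1 DAP library to the highest other endosperm mean (horizontal, log axis), for the 150 genes chosen on the other pair of 1 DAP libraries (red) and all other candidates (grey). The red curves lie to the right of the grey ones in each panel, with medians of 2.61, 3.29 and 3.54 for held-out replicates 1, 2 and 3.

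A gene name was available for 14 of the 150 members, and 107 matched an entry of the reference table at all. The named genes fall into transport, nitrogen and carbon metabolism, signalling and cell growth, and gene regulation. For these, whether reads of a close copy or of an antisense gene were counted with them is not given in the sources used here.

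HAK5 (also kup1, GRMZM2G084779), a high-affinity potassium transporter, had the highest score of the named members. It stood at 63.0, 42.1 and 56.5 CPM at 1 DAP, a mean of 53.9 ± 10.7 (SD, n = 3). Its highest value in any other library was 7.81 CPM, in the central cell, and its embryo libraries held 1.69, 3.24 and 1.19 CPM. Of the 18 HAK transporters in the table, a family looked up after the values were seen, 7 had their highest endosperm mean at 1 DAP, and of these the one next to HAK5 in score, HAK24, reached 1.49. HAK8 had 17.6 ± 8.93 CPM at 1 DAP and 16.9 ± 16.5 CPM in the central cell, and HAK24 8.37 ± 0.990 CPM against 5.30 ± 1.18 CPM. HAK1, the most abundant of the family, was at 110 ± 30.6 CPM in the central cell and at 74.2 ± 27.6 CPM at 1 DAP. pDCT1 (GRMZM2G040933), which encodes a plastid dicarboxylate transporter, was at 22.2, 27.8 and 27.3 CPM at 1 DAP and at 3.89 to 7.97 CPM in the central cell. It went lower afterwards, with 1.63 to 2.11 CPM at 2 DAP and no overlap between those groups. The permease GRMZM2G115635 was at 18.3, 17.5 and 21.5 CPM at 1 DAP, at no more than 4.89 CPM elsewhere in the endosperm, and at 46.2, 37.7 and 30.4 CPM in the embryo, above its 1 DAP libraries.

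Nitrogen assimilation was represented by a pair of enzymes. NIR (GRMZM2G079381), a nitrite reductase that turns nitrite into ammonium in plastids, was at 5.69, 17.2 and 21.0 CPM at 1 DAP. Its libraries of the central cell held 0, 0.445 and 1.75 CPM, those of 2 DAP 1.89, 4.45 and 3.65 CPM and those of 4 DAP at most 0.406 CPM. GLN6 (also GS1-1, GRMZM2G050514), a cytosolic glutamine synthetase that fixes ammonium into glutamine, was at 15.9, 25.4 and 51.3 CPM. The central cell reached 20.4 CPM, so the lowest 1 DAP library lay within the range of the stage before. Among the 7 glutamine synthetase models of the table, looked up after the values were seen, GRMZM5G885867 also had its highest endosperm mean at 1 DAP, with 5.92 ± 0.201 CPM against 3.95 ± 0.768 CPM at 2 DAP. The most abundant of them in the central cell, gln5 (GRMZM2G036464), was at 149 ± 72.2 CPM there and at 24.5 ± 12.5 CPM at 1 DAP. AGA2 (GRMZM2G127147), an alkaline alpha-galactosidase that releases galactose from raffinose-type sugars, was at 16.4, 26.7 and 56.7 CPM at 1 DAP and at 1.63, 6.07 and 16.2 CPM in the central cell. Its relatives AGA1, AGA3a and AGA3b had their highest endosperm means in the central cell or at 4 DAP.

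Among signalling and growth genes, RR9 (GRMZM2G060485), a response regulator of the cytokinin two-component pathway, was at 26.9, 22.2 and 27.7 CPM at 1 DAP. After the peak it held a plateau of 5.10 to 6.58 CPM at 2 DAP and 5.55 to 5.92 CPM at 3 DAP before 1.31 to 2.73 CPM at 4 DAP. rth3 (GRMZM2G377215), a COBRA-like protein needed for root hair growth, was at 25.0, 39.4 and 52.3 CPM, with up to 24.4 CPM in the central cell. wee1 (GRMZM5G878541), a kinase that inhibits cyclin-dependent kinases and holds back mitosis, was at 22.4, 22.8 and 18.8 CPM at 1 DAP. It was at 1.68 to 2.61 CPM in the central cell and at 1.37 to 10.0 CPM from 2 to 4 DAP, and its embryo libraries, at 17.9, 19.6 and 21.2 CPM, overlapped those of 1 DAP.

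Among regulators of transcription, bZIP111 (GRMZM2G073427) was the most even, at 18.6, 17.3 and 16.1 CPM at 1 DAP and 2.32 to 7.42 CPM in every other library. WRKY109 (GRMZM5G880069) was at 6.13, 13.4 and 14.6 CPM at 1 DAP and reached 4.41 CPM elsewhere. A further model of the same name, GRMZM2G023347, had 5.34 ± 0.972 CPM at 1 DAP and its highest mean at 3 DAP, with 6.31 ± 4.85 CPM. DBP2 (GRMZM2G055204) was uneven, at 6.58, 27.7 and 11.8 CPM, and its lowest 1 DAP library lay under the 8.04 CPM of a 4 DAP library. vip3 (GRMZM2G070211) was at 8.03, 7.31 and 9.53 CPM and between 1.32 and 4.53 CPM elsewhere.

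**Figure D4:**
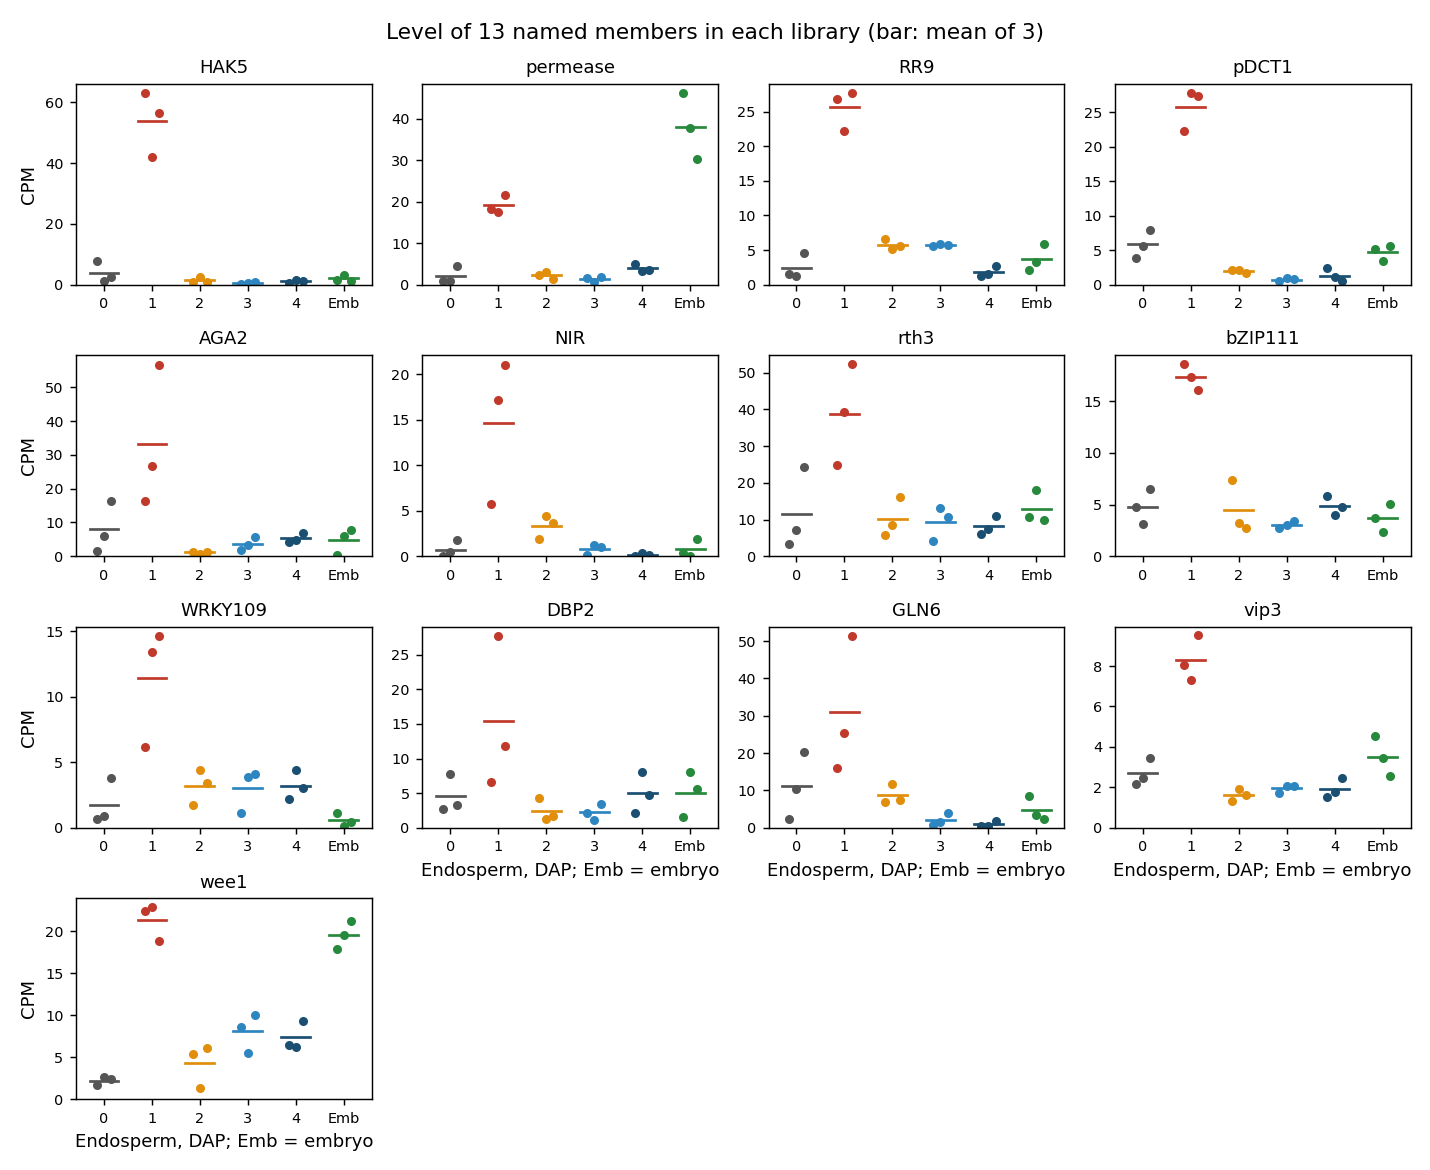
CPM of 13 named members in each library (points; replicates 1 to 3 from left to right) with the mean of 3 as a bar, for endosperm at 0 to 4 DAP and the embryo; each vertical axis starts at 0 and has its own scale. HAK5 and bZIP111 are high at 1 DAP alone, while wee1 is about as high and permease higher in the embryo.

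The levels at 0, 2, 3 and 4 DAP entered the rule as a cap, which fixes no direction between any pair of them. Still, peaks of this size were not equally common, with 634 genes at 0 DAP, 152 at 4 DAP and 7 at 2 DAP. The highest other endosperm mean was at 0 DAP in 58 members, at 2 DAP in 50, at 3 DAP in 13 and at 4 DAP in 29. Whether the cap acted alike on these stages was not tested. Shares of members beside those of all genes are therefore descriptions, while single genes were tested with limma over all 31783 genes, with p-values adjusted over all of them and calls at an adjusted p below 0.05. All 150 members passed the filter on low values through their 1 DAP libraries, and 14 had means under 1 CPM in both the central cell and 2 DAP, 16 in both 2 and 4 DAP and 22 in both the 4 DAP endosperm and the embryo, where little change could be seen. In the median the members were as high at 2 DAP as in the central cell, with some above and some below. Between the central cell and 2 DAP, 31 members rose (20.7% of 150, background 18.7% of all genes) and 20 fell (13.3%, background 21.9%), and 99 were not called. Without replicate 1 of the central cell 20 rose. The median change was 0.08 on the log2 scale, against -0.05 over all genes. Setting the median of all genes equal in every library moved that median by 0.18.

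The members higher at 2 DAP than in the central cell were led by GRMZM2G007057. Its central cell libraries held 1.26, 4.44 and 6.78 CPM, those of 1 DAP 74.3, 295 and 416 CPM, and those of 2 DAP 15.8, 53.7 and 168 CPM, a change from 0 to 2 DAP of 3.55 ± 0.79 (log2, SE; limma adjusted p = 0.0017). GRMZM2G114113 went from 2.44 to 4.66 CPM in the central cell to 21.7 to 73.1 CPM at 2 DAP, a rise of 3.24 ± 0.44 (limma adjusted p = 2.11e-05). Neither pair of groups overlapped. GRMZM2G141208 rose by 2.60 ± 0.25 (limma adjusted p = 5.54e-07) and had means of 58.7, 59.1 and 51.8 CPM at 2, 3 and 4 DAP, so that its peak of 176 ± 34.1 CPM stood above a raised level. From 2 to 4 DAP it changed by -0.18 ± 0.25 and did not pass (limma adjusted p = 0.693). GRMZM2G459864 rose by 2.58 ± 0.20 (limma adjusted p = 4.2e-08), from at most 0.146 CPM to between 4.36 and 6.79 CPM. Of the named members RR9 rose by 1.09 ± 0.33 (limma adjusted p = 0.0124) and NIR by 1.40 ± 0.47 (limma adjusted p = 0.0243). Both calls rest on few libraries: RR9 was lost without replicate 1 or replicate 2 of the central cell (adjusted p = 0.0559 and 0.0694, with a range over 18 alternatives of 0.00103 to 0.0998), and NIR was lost under 7 of 18 alternatives, with an adjusted p from 0.00204 to 0.261.

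The members lower at 2 DAP than in the central cell were led by GRMZM2G126900. GRMZM2G126900 was at 31.3, 24.5 and 58.8 CPM in the central cell and at 1.53, 5.82 and 6.52 CPM at 2 DAP, a change of -2.86 ± 0.65 (log2, SE; limma adjusted p = 0.00191). GRMZM2G153434 fell by 2.33 with an SE of 0.37 (limma adjusted p = 8.52e-05), GRMZM2G587365 by 2.27 with an SE of 0.48 (limma adjusted p = 0.00118) and GRMZM2G042664 by 2.21 with an SE of 0.46 (limma adjusted p = 0.00106). In none of these did the central cell and 2 DAP libraries overlap. The plastid transporter pDCT1 was the named member that fell, by 1.17 with an SE of 0.29 (limma adjusted p = 0.00337). AGA2, with a change of -1.67 ± 0.67, did not pass (limma adjusted p = 0.0574). It was called under 6 of 18 alternatives, with an adjusted p from 0.000686 to 0.282.

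From 2 to 4 DAP more members fell than rose, and how far the cap bears on that split was not tested. At 4 DAP 31 members were lower than at 2 DAP (20.7%, background 8.56%) and 8 were higher (5.33%, background 9.50%), with a median change of -0.22 against -0.01 over all genes. The count of lower members was 19 without replicate 1 of 4 DAP, and the count of higher members was 5 without replicate 1 or without replicate 2 of 4 DAP. This comparison shares the 2 DAP libraries with the one before it, so a high 2 DAP value counts in both. The calls leave out any pairing by replicate number. With the replicate number as a block, limma called 14.2% of all genes higher and 15.5% lower. The counts of members above come from the fit without the block, so they do not show how the members stand beside these larger shares.

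The steepest decline was that of GRMZM2G029546, at 11.5, 14 and 8.77 CPM at 2 DAP and 0.448, 0.961 and 0.149 CPM at 4 DAP, a change of -3.04 ± 0.36 (log2, SE; limma adjusted p = 1.53e-05). GRMZM2G459864 was listed at 0 in all 3 DAP libraries and reached 0.00878 CPM at most at 4 DAP, a change of -2.67 ± 0.20 (limma adjusted p = 5.7e-08), and it exceeded 1 CPM at 1 and 2 DAP alone. AC209784.3_FG007 fell by 2.29 with an SE of 0.35 (limma adjusted p = 0.000208). The nitrogen genes belonged here, GLN6 with a change of -2.36 ± 0.59 (limma adjusted p = 0.00974) and NIR with -1.84 ± 0.47 (limma adjusted p = 0.0109), and so did RR9 with -1.28 ± 0.33 (limma adjusted p = 0.0107). RR9 had an adjusted p of 0.0507 without replicate 1 of 4 DAP (range over 18 alternatives 0.00103 to 0.0733), and NIR one of 0.0625 with a pseudocount of 5 (range 0.000486 to 0.0625).

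A return after the dip was seen in GRMZM2G126900, which was at 40.9, 42.7 and 46.3 CPM at 4 DAP, a rise over 2 DAP of 3.13 ± 0.65 (limma adjusted p = 0.00263). GRMZM2G042664 rose by 2.67 ± 0.46 (limma adjusted p = 0.000669), GRMZM2G169967 by 2.33 ± 0.27 (limma adjusted p = 1.18e-05) and GRMZM5G874163 by 1.76 ± 0.27 (limma adjusted p = 0.00026). Their levels at 4 DAP, with means of 7.49, 5.14 and 21.7 CPM, stayed under those of 1 DAP, as the rule requires. AGA2, at 0.771 to 1.40 CPM at 2 DAP and 4.21 to 6.81 CPM at 4 DAP, was not called (change 1.52 ± 0.67, limma adjusted p = 0.136). It was called under 5 of 18 alternatives, the replicate block among them (limma adjusted p = 0.0141, range over the alternatives 0.00608 to 0.287).

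The embryo was not used to choose the genes. In 90 members the embryo mean was at or below the highest other endosperm mean, in 47 it lay between that and the 1 DAP mean, and in 13 members, 8.67%, it was at or above the 1 DAP mean, as it was in 44.2% of the candidates. The median embryo mean was 4.21 CPM, with 27 members under 1 CPM and 21 over 20 CPM. All 3 embryo libraries were below all 3 of 1 DAP in 124 members (background 24.4% of candidates) and above them in 4 (background 15.9%). Since the rule sought high 1 DAP levels, those counts are descriptions.

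Against the endosperm of the same age the members were more often higher in the embryo. The test called 40 members higher in the embryo (26.7%, background 12.4%) and 9 lower (6.0%, background 11.1%), with a median difference of 0.45 on the log2 scale against -0.01 over all genes. The rule capped the 4 DAP endosperm level and not that of the embryo, which favours calls in this direction, and how much of the excess it accounts for was not tested. With the replicate number as a block the lower count was 15 (background 17.4%), and it was 4 without replicate 2 or without replicate 3 of the 4 DAP endosperm and 5 without replicate 3 of the embryo. The embryo and the 4 DAP endosperm also differ in how their RNA was quantified, and the comparison shares the 4 DAP libraries with the one from 2 to 4 DAP.

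The largest difference was in GRMZM2G361423, at 84.7, 119 and 113 CPM in the embryo and 2.85, 0.149 and 0.782 CPM in the 4 DAP endosperm, a difference of 5.73 ± 0.45 (log2, SE; limma adjusted p = 3.58e-08). Its 1 DAP libraries, at 33.6, 31.7 and 22.2 CPM, all lay below those of the embryo. GRMZM2G083725 had an embryo mean of 96.6 ± 37.1 CPM against 6.44 ± 3.20 CPM, a difference of 3.73 ± 0.58 (limma adjusted p = 0.000112). GRMZM2G153434 differed by 3.72 ± 0.37 (limma adjusted p = 7.18e-07), with an embryo mean of 20.1 CPM. GRMZM2G119759 differed by 3.36 ± 0.44 (limma adjusted p = 1.77e-05), with 18.9 CPM.

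The highest embryo means of the set were those of GRMZM2G126900 at 205 ± 91.7 CPM, GRMZM5G874163 at 115 ± 47.0 CPM and GRMZM2G361423 at 106 ± 18.4 CPM. GRMZM2G126900 differed from the 4 DAP endosperm by 2.10 ± 0.65 (limma adjusted p = 0.0248) and GRMZM5G874163 by 2.31 ± 0.27 (limma adjusted p = 6.46e-06). The 1 DAP libraries of GRMZM2G126900 held 27.3, 135 and 256 CPM, so replicate 1 lay within the range of the central cell and below all 4 DAP endosperm libraries. Those of GRMZM5G874163 were even, at 85.2, 73.2 and 66.8 CPM, and its lowest mean was 4.84 CPM at 3 DAP. GRMZM2G141208, the fifth in order of embryo mean, at 86.2 ± 18.9 CPM, differed by 0.71 ± 0.25 (limma adjusted p = 0.0489).

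Of the named members described here, the permease gene was higher in the embryo by 2.98 ± 0.35 (limma adjusted p = 5.26e-06), pDCT1 by 1.36 ± 0.29 (limma adjusted p = 0.002) and wee1 by 1.31 ± 0.33 (limma adjusted p = 0.00768). In each of these the embryo libraries lay above those of the 4 DAP endosperm without overlap. GLN6, RR9 and vip3 were not called, with limma adjusted p of 0.0763, 0.139 and 0.0532, and were called higher with the replicate block, at 0.0299, 0.0478 and 0.033. Counting the block, GLN6 was called under 6, RR9 under 2 and vip3 under 5 of 18 alternatives. HAK5, with a difference of 0.46 ± 0.43, did not pass (limma adjusted p = 0.493).

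WRKY109 was the named member lower in the embryo, at 1.15, 0.149 and 0.456 CPM against 2.23 to 4.41 CPM, a difference of -1.43 ± 0.45 (log2, SE; limma adjusted p = 0.027). Its call was lost under 5 of 18 alternatives. GRMZM2G042664 at -1.48 ± 0.46 (limma adjusted p = 0.0273) and GRMZM2G148810 at -1.31 ± 0.43 (limma adjusted p = 0.0357) were lost under 6 each. GRMZM5G855337, at -1.30 ± 0.30 (limma adjusted p = 0.0036), held under all 18.

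**Figure D5:**
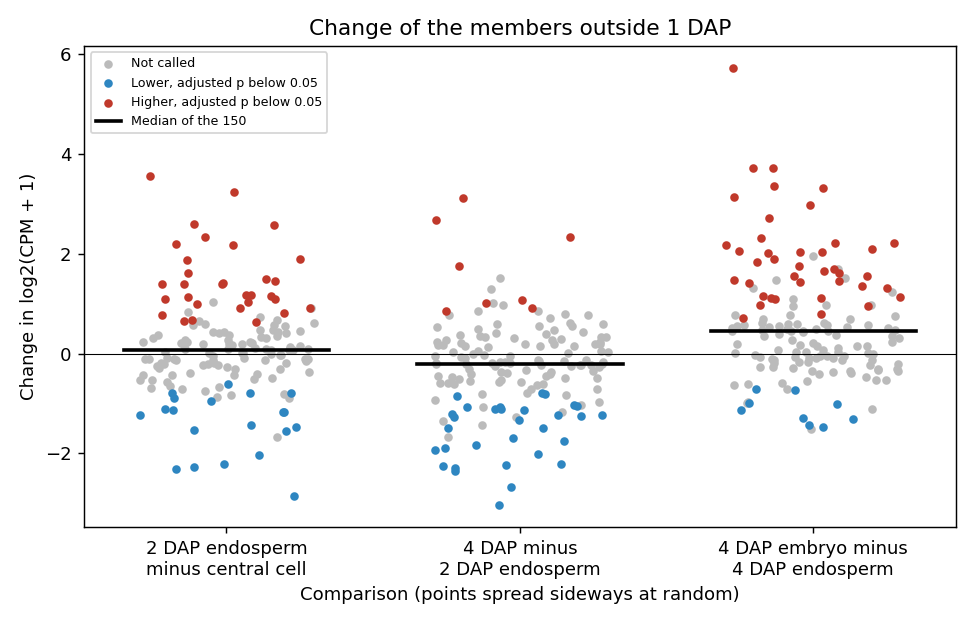
Change in log2(CPM + 1) of the 150 members in the 3 comparisons of groups other than 1 DAP. The spread behind the calls came from all 18 libraries, 1 DAP included. Each point is a member, red and blue points passed an adjusted p below 0.05, and black bars mark the medians of 0.08, -0.22 and 0.45. The cloud is centred near 0 between the central cell and 2 DAP, leans to lower values from 2 to 4 DAP and leans to higher values in the embryo.

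Gene lists by name pattern were counted beside the members, with the same limma calls. Over all genes tested 16.2% had their highest endosperm mean at 1 DAP. For transporters and channels this was 26.7% of 60 genes, 3 of them members. The shares were 25.0% of 20 mitotic regulators and cyclins, 22.2% of 27 cytokinin genes, 36.4% of 11 WRKY genes, 25.8% of 31 bZIP genes, 21.6% of 37 cell wall genes and 10.5% of 38 genes of sugar and starch, each with 1 member. From the central cell to 2 DAP, 18.7% of all genes tested rose and 21.9% fell. Of the transporters 3 rose and 30 fell, with a median of -0.85 on the log2 scale. Sugar and starch genes had 1 that rose and 20 that fell (median -1.03) and cell wall genes 6 and 15 (median -0.64). Mitotic regulators had 8 that rose and 2 that fell, wee1 not among them, and cytokinin genes 7 and 5. The bZIP genes had 4 and 6, and the WRKY genes 2 and 1. From 2 to 4 DAP 9.50% of all genes tested rose and 8.56% fell. Rises and falls were 12 and 10 for transporters, 11 and 5 for sugar and starch and 10 and 3 for cell wall. They were 7 and 4 for cytokinin, 2 and 0 for mitotic regulators, 8 and 1 for bZIP and 4 and 0 for WRKY. In the embryo against the 4 DAP endosperm, 12.4% of all genes tested were higher and 11.1% lower. The genes higher and lower were 13 and 9 transporters, 10 and 7 of sugar and starch and 4 and 8 of cell wall. They were 5 and 4 of cytokinin, 3 and 1 mitotic regulators, 5 and 2 bZIP and 0 and 2 WRKY genes. These are descriptions of small lists, and nothing particular to a list is drawn from them.

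Besides the pairs already named, GRMZM5G896956 and GRMZM2G413044 held identical reads in 12 of 18 libraries, and GRMZM6G704070 and GRMZM2G175593 matched 1 reference entry with reads within 20% of each other in every library. Such pairs may be 1 locus counted as 2 members. GRMZM2G093838 and GRMZM2G141066 also matched 1 reference entry, but their reads differed, with 1 DAP means of 23.3 and 14.7 CPM.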

How the data were processed

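RNA was measured in 18 libraries of 6 groups. The deposited table holds a normalised signal value per gene and library, which the authors call CPM. Per the submitters' processing notes the build was B73 RefGen_v3 and the tools were edgeR, TopHat2 2.0.9, Trimmomatic and bedtools 2.17.0, with no role stated, and strandedness is not given in the sources used here. In every library 100% of the values were whole multiples of 1 step within 0.01 reads, so whole reads could be recovered.

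Members were found from group means, and the members and lists were chosen with earlier results of these data known. Named were the 10 highest scores, 3 genes on each side of the limit, members with a gene name, up to 4 called members per direction and comparison, and the 5 highest embryo means. The pair GRMZM2G451007 and GRMZM2G451010 and the gene families and other identifiers were named after their values were seen. Names came from a RefSeq table of a later assembly (Zm-B73-REFERENCE-NAM-5.0), by identifier: 14444 of 38300 genes matched. No product descriptions, promoters or proteins were used. The values of 1 named member are not reported here.

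Values were tested as log2(CPM + 1), which understates changes of low genes, for genes reaching 1 CPM in 3 or more libraries, with limma 3.58.1 (trended variance, 1 mean per group, all 18 libraries, two-sided, Benjamini-Hochberg adjustment) in R 4.3.3. The script was tested on simulated data. Alternatives used edgeR 4.0.16 and DESeq2 1.42.0 on the recovered reads, other pseudocounts, filters and scalings, and fewer libraries. The edgeR quasi-likelihood test on recovered reads called 6282 genes higher and 6551 lower from 0 to 2 DAP, 2708 and 3213 from 2 to 4 DAP, and 3748 and 3358 in the embryo. Same-numbered libraries deviated together, with a correlation above 0.1 in 44 of 45 pairs (0.0562 to 0.696). It was so in all 3 pairs of 2 with 4 DAP and in all 3 of 4 DAP with the embryo. From 0 to 2 DAP it was so in 2 of 3 pairs. The numbers were thus read as pairing the libraries in the later 2 comparisons. The main calls left that pairing out, and a replicate block was fitted as an alternative. With the block, limma called 17.1% of all genes higher in the embryo, against 12.4% without. The main count of members higher in the embryo belongs beside the share without the block alone. The labels do not say what a number stands for.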

Additional observations from a re-analysis of the deposited data

How the results depend on the processing

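No named call reversed. Counts of members, which could not reverse by the way they were labelled, stayed near the main value in 122 settings and moved further in 15. Named genes kept their call in 1090 of the settings run, lost it in 30 and gained it in 32. Leaving out 1 library at a time gave 20 to 28 members higher and 15 to 20 lower from the central cell to 2 DAP. The 20 were those without replicate 1 of the central cell. It gave 5 to 9 higher and 19 to 25 lower from 2 to 4 DAP, and 31 to 43 higher and 4 to 10 lower in the embryo. The shares over all genes were not counted with 1 library left out. With the replicate block, edgeR called 53 members lower from 2 to 4 DAP (18% of all genes). With that block limma and edgeR each called 15 lower in the embryo (17.4% and 16.9% of all genes). A pseudocount of 5 gave 4 lower there, and the share over all genes at that pseudocount was not counted. From the central cell to 2 DAP the replicate block gave 32 higher and 22 lower (24% and 26.8% of all genes). A further count took the 110 members also chosen without replicate 1 of 1 DAP, a restriction made after seeing the data. Of these, 22 rose and 16 fell from the central cell to 2 DAP (backgrounds 18.7% and 21.9% of all genes). From 2 to 4 DAP 5 rose and 23 fell (9.50% and 8.56%), and 31 were higher and 5 lower in the embryo (12.4% and 11.1%). The smaller counts come with fewer members. Membership depended most on the minimum at 1 DAP: 90 of the 150 stayed with a minimum of 1 CPM and 97 with 10 CPM, since the minimum sets which genes compete. It was 110 to 148 when 1 library was left out. Depth limits the members near 0, above all in replicate 1 of 1 DAP, where 1 read was worth 0.112 CPM.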
